A study of Homo sapiens with 10 samples.

Results

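The MYC and MAX network is the set of basic helix-loop-helix leucine zipper proteins that bind DNA as dimers with MAX or with its relative MLX. The 9 genes described here, out of 25275 measured, were chosen by symbol: MYC, MAX, MXD1, MXD3, MXD4, MXI1, MNT, MGA and MLX. All 9 were found in the expression tables of both lymphoma lines of the study. The rule for choosing them uses no expression value, though earlier results of these data were known when it was written.

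MYC and MAX form the activating dimer of the network, which binds the E-box CACGTG at promoters of genes for ribosome assembly, nucleotide synthesis and growth. The MXD proteins, MXI1 and MNT compete for MAX and for the same E-box, and they recruit the SIN3 corepressor and its histone deacetylases. MGA carries a second DNA-binding domain of the T-box kind and is the scaffold of PRC1.6, a variant Polycomb repressor complex. MLX pairs with a part of the MXD group and with MNT, and it also pairs with the glucose-sensing factors MondoA (gene MLXIP) and ChREBP (gene MLXIPL). In diffuse large B-cell lymphoma, MYC is a well-known oncogene, and its transcription is under the control of several signal-dependent factors.

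The series contains 10 samples of OCI-LY10 and TMD8, 2 established human lines of the activated B-cell-like type of diffuse large B-cell lymphoma. RNA-seq was done on 6 samples, and 4 STAT3 ChIP-seq samples are not analysed here. In OCI-LY10 the RNA-seq groups were STAT3 shRNA (1 library with shRNA 10 and 1 with shRNA 16) and control shRNA (1 library). The 3 TMD8 samples bear labels for the same 3 shRNAs, but the 3 TMD8 columns have no names and are given by their position as columns 1, 2 and 3. All these cells were transduced with an shRNA, including the controls, and all received doxycycline at 20 ng/ml for 2 days to switch it on. Values are FPKM, fragments counted per kilobase of transcript and adjusted for sequencing depth, which allow levels of different genes to be set side by side because they are per length.

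CACGTG was sought in RefSeq promoter windows of GRCh38.p14, each running from 250 bases before to 50 bases after a transcription start, because it is the E-box that the network itself reads. It is its own reverse complement, so 1 search covers both strands. Windows were at hand for 8 of the 9 members, all but MYC, 13 windows in all, and 3 members held the motif: MXD4, MNT and MLX. Of all 35116 windows in that table, 7.26% held it, and 8.77% of the 27305 genes held it in any window. The stretches are printed 5′ to 3′ on the strand of the gene, with the E-box in capitals.
MXD4: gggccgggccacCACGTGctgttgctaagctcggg
MNT: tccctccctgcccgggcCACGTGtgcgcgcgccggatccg
MLX: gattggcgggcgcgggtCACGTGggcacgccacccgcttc
The MXD4 stretch is chr4:2262325-2262359, minus strand, and its E-box starts 238 bases before the transcription start. The MNT stretch is chr17:2401231-2401270, minus strand, with the E-box 193 bases before the start. The MLX stretch is chr17:42567033-42567072, plus strand, with the E-box 50 bases before the start. The letters TTCNNNGAA, which STAT factors bind and which also read the same on both strands, were in 0 of the 13 windows of members, against 7.66% of all windows. A match describes these letters only, and a missing match says nothing about binding elsewhere.

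STAT3, the shRNA target, was at 11.1 FPKM with shRNA 10 and 10.6 FPKM with shRNA 16, against 16.5 FPKM in the OCI-LY10 control library. Its log2 change on FPKM + 1 was −0.56 (SE 0.10, limma adjusted p = 0.0465), a call lost with a pseudocount of 0.1 FPKM (0.0508), with no filter on low values (0.0688) and with small RNA genes left out (0.0683). The TMD8 columns 1, 2 and 3 held 120.3, 24.3 and 22.5 FPKM of STAT3, values that were not used to assign an shRNA to any column. All 7 B cell markers, among them MS4A1, CD79A, CD79B and PAX5, were at 1 FPKM or more in each of the 6 libraries.

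The OCI-LY10 library labelled control shRNA stood apart from the STAT3 shRNA libraries of its own line and was closer to the TMD8 columns. Across 11004 genes outside small RNAs, Pearson's r of log2(FPKM + 1) was 0.994 between the STAT3 shRNA libraries, 0.845 between either of them and the control library, and 0.935 to 0.960 between the control library and the TMD8 columns. Between the STAT3 shRNA libraries and the TMD8 columns, r was 0.796 to 0.815. The label of the control library is therefore in doubt, as are those of the STAT3 shRNA libraries. These values do not show which labels are wrong. Every comparison of STAT3 shRNA with control below is between libraries as labelled and rests on these labels. So does every comparison of the OCI-LY10 libraries with TMD8. Summed B cell markers were at 2386 and 2642 FPKM with the STAT3 shRNAs and 838 FPKM in the control library. By limma 5 of the 7 were higher, 1 was lower and 1 did not pass, against 20.3% higher and 17.4% lower among all tested genes. The lower one was CD22, at 23.0 and 29.3 FPKM with the STAT3 shRNAs and 62.1 FPKM in the control library. Summed over 9 T and NK cell markers, the STAT3 shRNA libraries had 0.351 and 0.398 FPKM, against 15.8 FPKM in the control library, where 1 of the 9 (CD5, also carried by some B cells) reached 1 FPKM. Summed over 7 myeloid markers they had 2.39 and 1.55 FPKM, against 48.2 FPKM in the control library, where 1 of 7 (CD68) reached 1 FPKM, and over 7 fibroblast and epithelial markers 5.58 and 6.02 FPKM, against 40.0 FPKM, where 4 of 7 did. CDH1 made up 32.6 FPKM of that last sum, while EPCAM was at 4.39 FPKM with either STAT3 shRNA and listed at 0 in the control library. In the TMD8 columns, summed B cell markers were at 802 to 958 FPKM, a range that holds the OCI-LY10 control library. Their sums were 3.64 to 7.38 FPKM for T and NK cell markers and 23.4 to 34.9 FPKM for myeloid markers. Fibroblast and epithelial markers summed to 23.1 to 26.1 FPKM there. These last 3 ranges lay between the STAT3 shRNA libraries and the control library. CD5, CD68 and CDH1 were above 1 FPKM in every TMD8 column, and EPCAM was listed at 0. CD3D, CD2, NCAM1, S100A8 and MPO were listed at 0 in all 6 libraries. The part of these differences in the results below was not tested, and in bulk RNA fewer cells of a type and less RNA per cell cannot be told apart. Relative to shRNA 10, depth was 0.731 with shRNA 16 and 1.52 in the control library, and small RNA genes took 57.8% and 58.1% of summed FPKM with the STAT3 shRNAs and 49.0% in the control library. No condition has a second library, so the test uses the spread between the 2 STAT3 shRNA libraries and assumes it for the control.

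MYC was the most abundant member in every library. It was at 110.2 FPKM with shRNA 10 and 130.0 FPKM with shRNA 16, against 109.9 FPKM in the OCI-LY10 control library. The TMD8 columns held 130.6, 115.1 and 105.2 FPKM. The libraries with shRNA 10 and control were almost level, the library with shRNA 16 lay above both, and the lines overlapped. Among 11340 ranked genes, MYC lay between place 584 and place 794 in the 6 libraries. The STAT3 shRNA libraries averaged 120.1 ± 14.0 FPKM (SD, n = 2), 109% of control, for a log2 change of 0.12 (SE 0.15, 95% interval −0.40 to 0.64, limma adjusted p = 0.560). The change of MYC was smaller in size than that of 85.2% of tested genes.

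**Figure D1:**
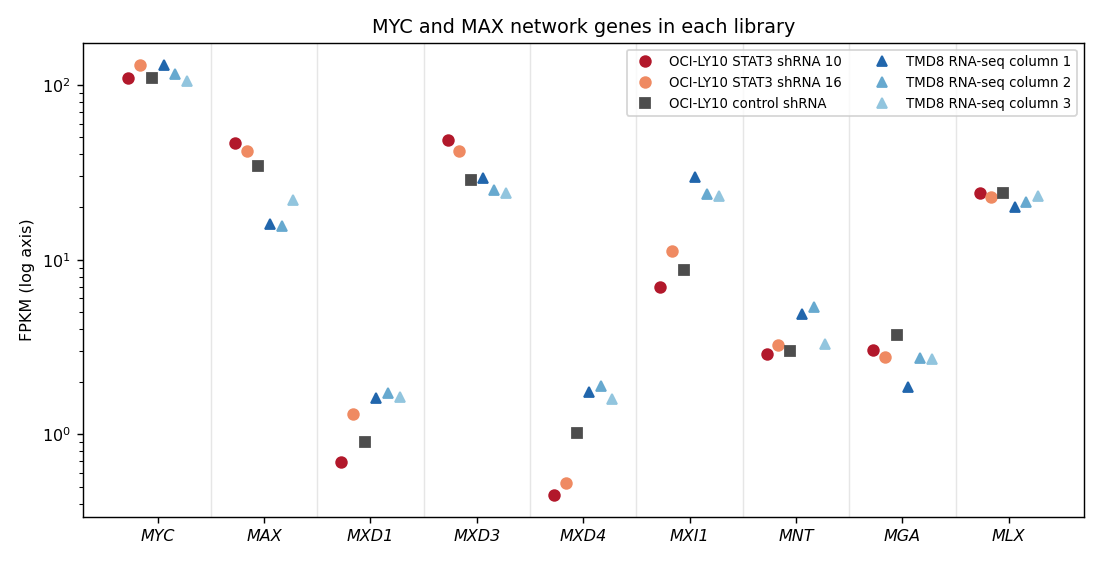
FPKM of the 9 network genes on a log axis in each of the 6 libraries: OCI-LY10 STAT3 shRNA (circles), OCI-LY10 control shRNA (square) and the TMD8 columns (triangles), 1 point per library. MYC is highest throughout, MXD1 and MXD4 are lowest, and MAX and MXI1 separate the lines in opposite directions.

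MYCN and MYCL encode the other MYC proteins that pair with MAX. MYCN was listed at 0 in all 6 libraries. MYCL was at 0.0565 and 0.0984 FPKM with the STAT3 shRNAs, 0.767 FPKM in the OCI-LY10 control library and 1.54, 1.43 and 1.08 FPKM in the TMD8 columns. MYC was therefore the only MYC paralog above 2 FPKM in these libraries. MYCL had a mean below 1 FPKM in OCI-LY10 and was left out of the test. With no filter on low values limma called MYCL lower with the STAT3 shRNAs, as it did 11.6% of all tested genes.

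MAX, the shared partner, was at 46.6 FPKM with shRNA 10 and 41.7 FPKM with shRNA 16, against 34.3 FPKM in the OCI-LY10 control library. In TMD8 it was at 15.9, 15.5 and 21.9 FPKM. Both STAT3 shRNA libraries lay above the control, and all 3 OCI-LY10 libraries lay above all 3 TMD8 columns. The log2 change with the STAT3 shRNAs was 0.35 (SE 0.12, 95% interval −0.06 to 0.76), which did not pass the test (limma adjusted p = 0.122).

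MXD3, an MXD protein of proliferating cells, was at 48.2 FPKM with shRNA 10 and 42.1 FPKM with shRNA 16, against 28.5 FPKM in the OCI-LY10 control library. In TMD8 it was at 29.3, 25.1 and 24.0 FPKM. Both STAT3 shRNA libraries lay above every other library, while the OCI-LY10 control lay within the range of TMD8. The ratio to control was 1.69 with shRNA 10 and 1.47 with shRNA 16. The log2 change was 0.64 (SE 0.13, 95% interval 0.18 to 1.10), the largest among the tested members, and it missed the threshold (limma adjusted p = 0.0563). With small RNA genes left out of the table the log2 change was 0.78 and passed (limma adjusted p = 0.0172). Of all genes tested in that setting, 32.5% were called higher, and their median log2 change as a whole was 0.19, against 0.06 in the full table.

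MXI1, also called MXD2, was at 6.97 FPKM with shRNA 10 and 11.2 FPKM with shRNA 16, against 8.74 FPKM in the OCI-LY10 control library. In TMD8 it was at 29.8, 23.8 and 23.2 FPKM. The control lay between the STAT3 shRNA libraries, and every OCI-LY10 library lay below every TMD8 column. The log2 change was 0.02 (SE 0.34, 95% interval −1.16 to 1.20, limma adjusted p = 0.966). MXI1 was the only tested member that differed at least 1.5-fold between the STAT3 shRNAs on FPKM + 1, a difference found in 3.62% of tested genes. Its FPKM ratio of shRNA 16 to shRNA 10 was 1.61, with 1 library each and no test.

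MXD1 and MXD4 were at low levels, near the mean of 1 FPKM required for the test. MXD1, the original MAD protein, was at 0.696 and 1.30 FPKM with shRNAs 10 and 16, against 0.902 FPKM in the OCI-LY10 control library and 1.61, 1.73 and 1.64 FPKM in TMD8. MXD4, whose promoter E-box is printed above, was at 0.449 and 0.524 FPKM with the STAT3 shRNAs, against 1.02 FPKM in the control library and 1.73, 1.90 and 1.6 FPKM in TMD8. Both were lower in all OCI-LY10 libraries than in any TMD8 column. Both had a mean below 1 FPKM in OCI-LY10 and were left out of the test, so 7 of the 9 members were tested. With that filter dropped, MXD4 had a log2 change of −0.44 (limma adjusted p = 0.0671).

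MNT, the widely expressed repressor partner of MAX, was at 2.86 and 3.25 FPKM with the STAT3 shRNAs, against 2.99 FPKM in the OCI-LY10 control library and 4.90, 5.38 and 3.30 FPKM in TMD8. The OCI-LY10 control lay between the STAT3 shRNA libraries. Its log2 change was 0.02 (SE 0.12, 95% interval −0.38 to 0.43, limma adjusted p = 0.883). MGA was at 3.03 and 2.76 FPKM with the STAT3 shRNAs, against 3.68 FPKM in the control library and 1.87, 2.73 and 2.70 FPKM in TMD8. Both STAT3 shRNA libraries lay below the control and above the TMD8 columns, with 2.76 FPKM (shRNA 16) against 2.73 FPKM (column 2) as the nearest pair. The log2 change of MGA was −0.27 (SE 0.11, 95% interval −0.64 to 0.10, limma adjusted p = 0.159).

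MLX, the MAX-like partner, varied little. It was at 24.2 and 22.8 FPKM with the STAT3 shRNAs, against 24.0 FPKM in the OCI-LY10 control library and 20.1, 21.5 and 23.2 FPKM in TMD8. Its log2 change was −0.03 (SE 0.10, 95% interval −0.37 to 0.31, limma adjusted p = 0.835). Of its partners, MLXIP was at 7.16 and 6.55 FPKM with the STAT3 shRNAs, against 5.79 FPKM in the control library and 6.87, 7.72 and 6.77 FPKM in TMD8 (limma adjusted p = 0.255). MLXIPL was listed at 0 in 5 libraries and at 0.0166 FPKM in TMD8 column 3.

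Over the whole network, 0 of the 7 tested members were higher and 0 lower with the STAT3 shRNAs in OCI-LY10 by limma, where 20.3% of 11162 tested genes were higher and 17.4% lower. At an unadjusted p below 0.05, 1 member (MXD3) passed, against 52.4% of tested genes. At least 1.5-fold higher on FPKM + 1 with both shRNAs were 0 members, against 20.1% of tested genes, and at least 1.5-fold lower 0 members, against 17.2%. The median absolute log2 change was 0.12 over the 7 tested members and 0.49 over all tested genes, and the signed medians were 0.02 and 0.06. The signs of MXI1 and MNT turned with median-of-ratios scaling, and that of MLX with small RNA genes left out, so no direction is given for them. A missed threshold does not show that levels were the same: the intervals leave room for changes of up to 0.64 on the log2 scale for MYC and 1.20 for MXI1.

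**Figure D2:**
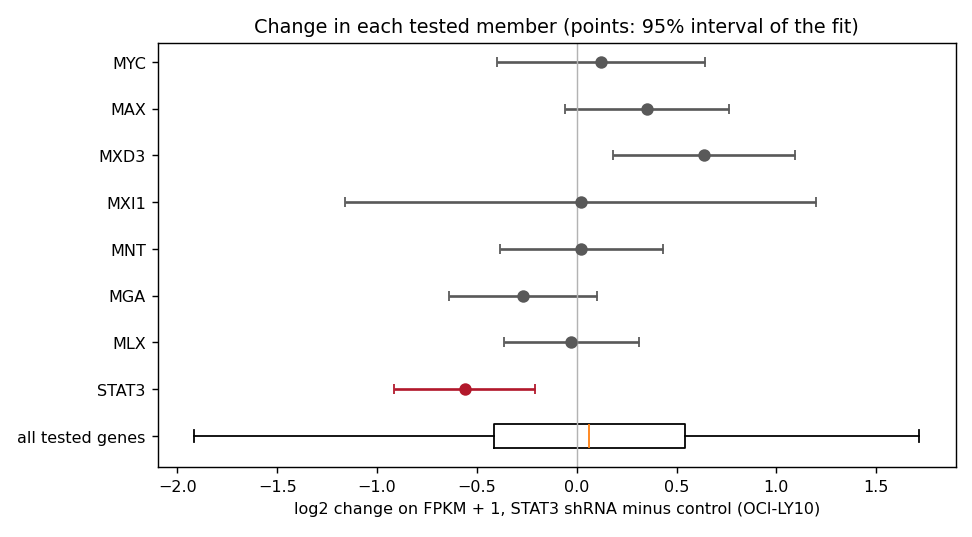
Log2 change on FPKM + 1 of the 7 tested members and of STAT3, OCI-LY10 STAT3 shRNA (n = 2 libraries) minus control (n = 1), with 95% intervals of the limma fit, above a box of all tested genes (line at the median, box over the quartiles, whiskers from the 5th to the 95th percentile). Among members, only the interval of MXD3 lies wholly above 0, and its adjusted p is 0.0563.

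The balance between the members was read within each library, where scaling between libraries does not enter. MYC exceeded MAX 2.36-fold with shRNA 10 and 3.12-fold with shRNA 16, against 3.20-fold in the OCI-LY10 control library. In the TMD8 columns the ratio was 8.20, 7.42 and 4.80, above every OCI-LY10 library. MAX exceeded MLX 1.93-fold and 1.83-fold with the STAT3 shRNAs and 1.43-fold in the control library, but MAX was below MLX in TMD8, with ratios of 0.792, 0.723 and 0.945.

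The MXD group differed in its makeup between the lines. MXD3 supplied 85.6% and 76.3% of summed MXD1, MXD3, MXD4 and MXI1 FPKM with the STAT3 shRNAs, against 72.8% in the OCI-LY10 control library and 46.9%, 47.8% and 47.6% in TMD8. MXI1 supplied 12.4% and 20.3% with the STAT3 shRNAs, against 22.3% in the control library and 47.7%, 45.3% and 46.0% in TMD8. MXD3 was thus the leading MXD gene in OCI-LY10, and MXD3 and MXI1 were at nearly equal levels in TMD8. The ratio of MXD3 to MXI1 was 6.91 and 3.75 with the STAT3 shRNAs, 3.27 in the control library and 0.982, 1.05 and 1.03 in TMD8.

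**Figure D3:**
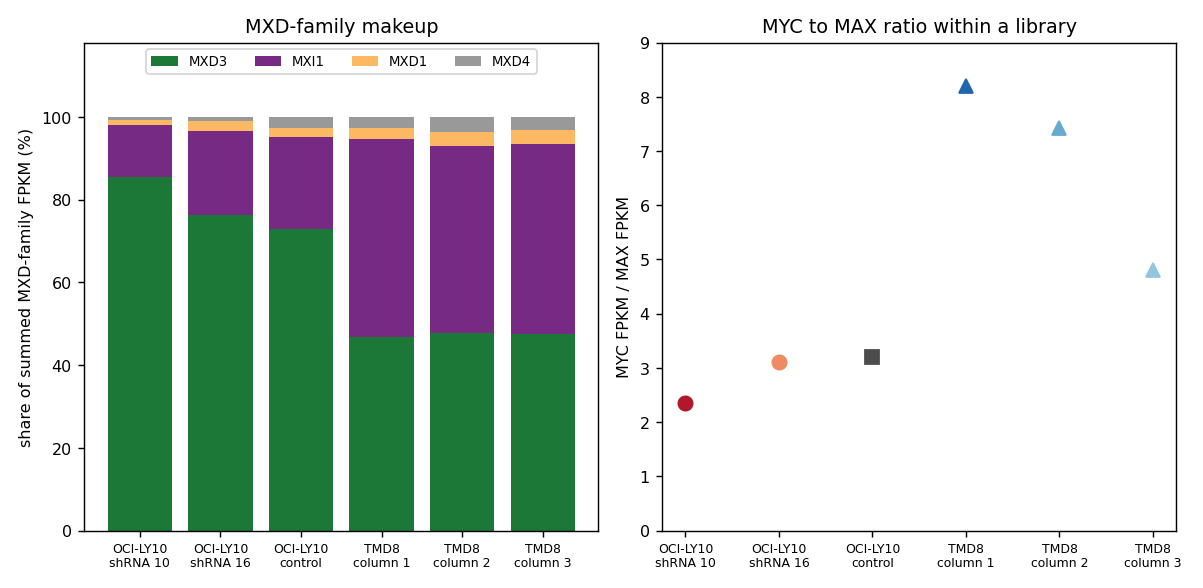
Left, share (%) of summed MXD-group FPKM taken by MXD3, MXI1, MXD1 and MXD4 in each library; right, MYC FPKM divided by MAX FPKM in each library. MXD3 takes 72.8% or more in the OCI-LY10 libraries and 47.8% or less in the TMD8 columns, and the MYC to MAX ratio is 3.20 or less in OCI-LY10 and 4.80 or more in TMD8.

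Set against all MXD genes together, MYC lay in a narrower range. MYC over summed MXD FPKM was 1.96 and 2.36 with the STAT3 shRNAs, against 2.80 in the OCI-LY10 control library and 2.09, 2.19 and 2.09 in TMD8. With MNT and MGA added to the sum, MYC over the repressors was 1.77 and 2.13 with the STAT3 shRNAs, 2.40 in the control library and 1.88, 1.90 and 1.87 in TMD8. The OCI-LY10 control library had the highest of the 6 ratios in both cases, and the lines overlapped.

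In order of level, MYC was followed by MXD3 and MAX in both STAT3 shRNA libraries and by MAX and MXD3 in the OCI-LY10 control library. MLX and MXI1 came next in all 3 OCI-LY10 libraries, and MGA and MNT after them. In TMD8, MXD3, MXI1 and MLX took places 2 to 4 in a different order in each column, MAX was in place 5, and MNT preceded MGA. MXD1 and MXD4 held the last places in all 6 libraries. The ranges over libraries overlapped for MXD3 and MAX and for MNT and MGA in OCI-LY10, for MXD3 and MXI1, MXI1 and MLX, and MLX and MAX in TMD8, and for MXD1 and MXD4 in both lines.

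Within TMD8, no column can be given an shRNA. The largest over the smallest FPKM + 1 of the 3 columns reached 1.5 for 0 of 9 members, against 11.5% of 10888 genes, so a count of 0 among 9 genes says little about them. MNT came nearest, at 1.48, followed by MAX at 1.39 and MGA at 1.30. MXD1 varied least, at 1.04. Column 3 held the lowest MNT value and the highest MAX value. In that column small RNA genes took 43.3% of summed FPKM, against 22.5% and 28.7% in columns 1 and 2. Relative to column 1, depth was 0.958 in column 2 and 0.865 in column 3. The part of these library differences in the ratios was not tested. MNT passed 1.5 once the columns were rescaled (1.51) or a pseudocount of 0.1 FPKM was used (1.61). No share of all genes is given for these settings.

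Between the lines, levels are set side by side with no test, because the tables may have been normalized separately. Small RNA genes took 22.5%, 28.7% and 43.3% of summed FPKM in TMD8 columns 1, 2 and 3, against 49.0% to 58.1% in the OCI-LY10 libraries. The part of this difference in the levels was not tested. All OCI-LY10 libraries lay above all TMD8 columns for 2 members (MAX and MGA), against 20.9% of 11340 genes, and below them for 4 (MXD1, MXD4, MXI1 and MNT), against 26.9%. With all 6 libraries brought to a common scale, MXD3 and MLX joined MAX and MGA above TMD8, and MNT no longer lay below it. Without the OCI-LY10 control library, MXD3 joined MAX and MGA, with the same 4 below. The mean over OCI-LY10 libraries divided by that over TMD8 columns was 2.30 for MAX, 0.351 for MXI1 and 0.998 for MYC. The OCI-LY10 control was nearer to the TMD8 mean than to the STAT3 shRNA mean for 3 members (MYC, MXD3 and MXD4), against 60.5% of all genes.

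Genes that MYC is known to activate went both ways in OCI-LY10. Of 60 tested, 6 rose, 5 fell and 49 did not pass (10.0% higher and 8.33% lower, limma), against 20.3% higher and 17.4% lower among all tested genes. The median log2 change was 0.13, against 0.06 over all tested genes. BYSL, of small ribosomal subunit assembly, was at 84.1 and 75.9 FPKM with the STAT3 shRNAs, against 30.4 FPKM in the control library, a log2 change of 1.36 (limma adjusted p = 0.0171). FASN, the fatty acid synthase, was at 67.9 and 74.0 FPKM, against 29.3 FPKM in the control library, a log2 change of 1.24 (limma adjusted p = 0.0174). SORD, sorbitol dehydrogenase, fell by 1.07 and TBRG4, a mitochondrial RNA-binding protein, fell by 0.72 on the log2 scale (limma adjusted p = 0.0171 and 0.0257). The count of risen genes depended on the settings: it was 18 with small RNA genes left out, 3 with median-of-ratios scaling and 2 with no filter. The shares of all tested genes that were higher in those settings were 32.5%, 17.9% and 7.18%. With no filter 2 genes of the list fell, against 11.6% of all tested genes.

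In 43 of the same 60 activated targets all OCI-LY10 libraries lay above all TMD8 columns, and in 0 below, against 20.9% and 26.9% of all genes. NCL, the nucleolar protein nucleolin, was at 787 and 648 FPKM with the STAT3 shRNAs, 470.3 FPKM in the OCI-LY10 control library and 353, 317 and 346 FPKM in TMD8. LDHA, lactate dehydrogenase, was at 757 and 839 FPKM with the STAT3 shRNAs, 765 FPKM in the control library and 258, 224 and 334 FPKM in TMD8. NCL and LDHA were picked as examples after their values were seen. MYC itself overlapped between the lines. On a common scale the counts were 46 and 0. Without the OCI-LY10 control library they were 48 and 4, where 37.9% of all genes lay above and 41.0% below. The list is a description, chosen for its known tie to MYC. The E-box CACGTG was in a promoter window of 29 of its 48 genes that had one (60.4%). Among all 27305 RefSeq genes, expressed here or not, the share was 8.77%. Of the lists described below, the share was also higher for MYC cofactors (30% of 10), stability genes (25% of 12) and MYC-repressed targets (21.4% of 14). So it was for PRC1.6 partners (16.7% of 12) and MondoA and MLX targets (3 of 5). It was lower for SIN3 and NCOR corepressors (6.25% of 16) and upstream regulators (6.67% of 15), and 0 of 4 network relatives held the E-box. These shares were not tested.

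Of genes that MYC is known to repress, 12 of 17 could be tested. Of these, 1 rose, 5 fell and 6 did not pass (8.33% higher and 41.7% lower), against 20.3% higher and 17.4% lower among all tested genes, and the median was −0.48, against 0.06. ATF3, a stress-induced transcription factor, was at 3.86 and 3.46 FPKM with the STAT3 shRNAs, against 28.1 FPKM in the control library, and fell by 2.64 on the log2 scale (limma adjusted p = 0.00930). NDRG2 was listed at 0 with both STAT3 shRNAs and stood at 3.52 FPKM in the control library. BTG1, an antiproliferative gene, fell by 0.63 (limma adjusted p = 0.0422), and NDRG1, a stress-response gene, rose by 1.29 (limma adjusted p = 0.0198). With no filter on low values BTG1 (0.0747) and NDRG1 (0.0541) lost their calls.

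**Figure D4:**
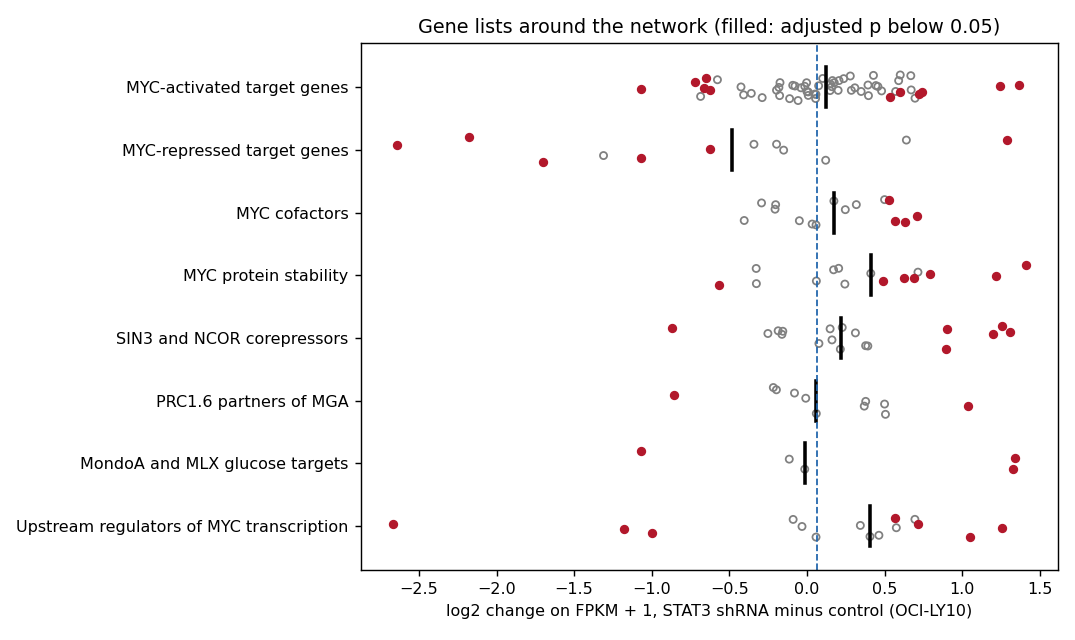
Log2 change on FPKM + 1, OCI-LY10 STAT3 shRNA minus control, of the tested genes of 8 lists around the network, 1 point per gene (filled where the limma adjusted p is below 0.05); black bars are list medians and the dashed line is the median of all tested genes, 0.06. Most lists hold genes on both sides, the MYC-repressed list has a median of −0.48, and the protein stability list a median of 0.41.

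Of 15 genes that set the stability of MYC protein, 6 rose, 1 fell and 8 did not pass (40.0% higher and 6.67% lower), against 20.3% higher and 17.4% lower among all tested genes. The median log2 change was 0.41, against 0.06. Risen genes included some that act in opposite ways on MYC protein: USP36 and USP28 encode deubiquitinases that protect it, while FBXW7 and GSK3B encode the ligase component and the kinase that mark it for decay, and PPP2R5A a phosphatase subunit that favours decay. USP36 was at 30.2 and 32.4 FPKM with the STAT3 shRNAs, against 11.1 FPKM in the control library, a log2 change of 1.41 (limma adjusted p = 0.0151), and USP28 rose by 1.22 (0.0201). SKP2, another ubiquitin ligase component that acts on MYC, fell by 0.57 (limma adjusted p = 0.0457). SKP2 lost its call under 2 of 7 alternative settings, up to an adjusted p of 0.0713. With no filter on low values 2 genes of the list rose and 0 fell, against 7.18% higher and 11.6% lower among all tested genes.

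Among 15 MYC cofactors, 4 rose (26.7%) and 0 fell, against 20.3% higher and 17.4% lower among all tested genes. The median was 0.17, against 0.06, and the share of risen genes was near that of all genes. HCFC1, a MYC-binding host cell factor, rose by 0.71 on the log2 scale (limma adjusted p = 0.0374), and EP400, a chromatin remodelling ATPase, by 0.63 (0.0384). RUVBL1, an ATPase of the same remodelling complex as EP400, rose by 0.53 (limma adjusted p = 0.0454). With no filter on low values 0 of the list rose, against 7.18% of all tested genes. The limma adjusted p was then 0.0636 for EP400, 0.0712 for HCFC1 and 0.0715 for RUVBL1. RUVBL1 also lost its call with median-of-ratios scaling. In that setting 3 cofactors rose and 1 fell, against 17.9% higher and 18.9% lower among all tested genes. With quantile normalization 4 rose and 1 fell, against 20.6% higher and 17.7% lower.

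Of 18 genes of the SIN3 and NCOR corepressors, through which MXD proteins act, 5 rose, 1 fell and 12 did not pass (27.8% higher and 5.56% lower), against 20.3% higher and 17.4% lower among all tested genes. The median was 0.22, against 0.06. HDAC1, a histone deacetylase, was at 87.6 and 80.5 FPKM with the STAT3 shRNAs, against 34.5 FPKM in the control library, a log2 change of 1.26 (limma adjusted p = 0.0171). TBL1XR1, of the NCOR complex, rose by 1.31 (0.0473), and ARID4B, of the SIN3 complex, rose by 0.90 (0.0237). KDM5A, a histone demethylase found with SIN3, fell by 0.87 (0.0268). TBL1XR1 lost its call under 4 of 7 alternative settings, up to a limma adjusted p of 0.113, and KDM5A under 1 (0.0550, no filter). With no filter 3 genes of the list rose and 0 fell, against 7.18% higher and 11.6% lower among all tested genes.

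Among 11 tested partners of MGA in PRC1.6, 1 rose and 1 fell (9.09% each), against 20.3% higher and 17.4% lower among all tested genes. The median was 0.06, as over all tested genes, but it moved with the settings. It was 0.37 over the 9 genes of mean 5 FPKM or more, against 0.09 over all genes tested with that filter. With median-of-ratios scaling it was −0.016, against −0.0075, and with quantile normalization −0.028, against 0.051. TFDP1, the dimer partner of E2F factors, was at 296 and 294 FPKM with the STAT3 shRNAs, against 144 FPKM in the control library, a log2 change of 1.03 (limma adjusted p = 0.0168). CBX3, a reader of methylated histone H3, fell by 0.85 (0.0313) and lost its call with no filter (0.0712). With small RNA genes left out, 3 genes of this list rose, in a setting where 32.5% of all tested genes were higher.

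Of 5 tested glucose-response targets of MondoA and MLX, 2 rose and 1 fell, a list too short to set beside the 20.3% higher and 17.4% lower among all tested genes. KLF10, a zinc finger repressor, rose by 1.34 and ARRDC3, an arrestin-domain gene, rose by 1.32 on the log2 scale (limma adjusted p = 0.0171 and 0.0164). TXNIP, the best known target and also on the list of MYC-repressed genes, was at 8.01 and 7.30 FPKM with the STAT3 shRNAs, against 17.1 FPKM in the control library and 35.7, 46.3 and 15.0 FPKM in TMD8. It fell by 1.07 (limma adjusted p = 0.0229, and 0.0519 with no filter).

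Among 15 tested upstream regulators of MYC transcription, 4 rose, 3 fell and 8 did not pass (26.7% higher and 20.0% lower), near the 20.3% higher and 17.4% lower among all tested genes. The median was 0.41, against 0.06. FOXO1, a forkhead factor, was at 11.5 and 10.9 FPKM with the STAT3 shRNAs, against 4.08 FPKM in the control library, a log2 change of 1.26 (limma adjusted p = 0.0174), and LEF1, a partner of beta-catenin, rose by 1.05 (0.0172). PRDM1, a repressor of MYC in plasma cell differentiation, was at 0.685 and 0.585 FPKM, against 9.39 FPKM in the control library, and fell by 2.67 (0.00773). NFKB1, an NF-kB subunit, fell by 1.18 (0.0166). With small RNA genes left out, 9 genes of the list rose, in a setting where 32.5% of all tested genes were higher.

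The genes most like MYC over the 6 libraries, by Pearson's r of log2(FPKM + 1) among 7213 genes of mean 5 FPKM or more in each line, were MIF (0.984), DENND1C (0.962), MRPL40 (0.919), LAMTOR4 (0.910) and HPS6 (0.909). MIF, a cytokine gene, was at 355 and 467 FPKM with the STAT3 shRNAs, against 368 FPKM in the OCI-LY10 control library and 465, 366 and 326 FPKM in TMD8. Like MYC, these genes were highest with shRNA 16 within OCI-LY10 and in column 1 within TMD8. Among members, r with MYC was 0.27 for MXD3, 0.26 for MXI1, −0.13 for MAX and −0.66 for MLX. These are descriptions over 6 points that share their library and its depth.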

How the data were processed

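The authors deposited FPKM, 1 value per gene and library, in a table for each line. The submitters' processing notes name Bowtie2, TopHat and the build hg19 but give neither version nor role. Which program computed FPKM, on which annotation and with what scaling, is not given in the sources used here. RNA was prepared with a TruSeq kit, per the labels' protocols. The OCI-LY10 columns were matched to samples by name, and 3 TMD8 columns with no sample name are reported by position. Rows of 2 repeated symbols were summed, which leaves 25275 genes in 25277 rows.

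In OCI-LY10, genes of mean FPKM 1 or more were tested on log2(FPKM + 1) with limma 3.58.1 under R 4.3.3 (a trended empirical Bayes fit, two-sided, Benjamini-Hochberg over 11162 genes, threshold 0.05), STAT3 shRNA (2 libraries) against control (1), leaving 1 residual degree of freedom beside 1.64 from the prior. A fold change on FPKM + 1 understates the change of low genes. Nothing says that libraries came from separate cultures, so p-values measure only the spread between these libraries. The procedure was run on simulated data in which all libraries had the same spread, taken from the STAT3 shRNA libraries. That run cannot check whether the control library has this spread. Relative depth came from ratios of low values between libraries. Since FPKM holds no read total, the absolute depth is unknown and intervals for counting error are left out.

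The 9 members and all gene lists were chosen with earlier results of these data known. Named genes were the members, STAT3, the network relatives, per list up to 2 highest and 2 lowest changes among genes called, and the 5 genes most like MYC. FBXW7, GSK3B and PPP2R5A were named after their values were seen. Some genes that the rule names are left out of the text. Alternatives were other pseudocounts (0.1 and 5 FPKM), filters, scalings, small RNA genes left out and each shRNA left out.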

Additional observations from a re-analysis of the deposited data

How the results depend on the processing

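With genes of mean 5 FPKM or more, 1178 genes were lower in OCI-LY10, against 1943. With no filter 1299 were higher, against 2263. With small RNA genes left out 3527 were higher, which raised the share of higher genes among all calls to 64.4%, against 53.8%. In that setting 1 of 7 tested members (MXD3) was called higher, against 32.5% of all tested genes, and 1 was at least 1.5-fold higher with both shRNAs. With each STAT3 shRNA left out in turn, the number of members at least 1.5-fold higher was 0 to 1, and it was 1 without shRNA 16. Of the share of higher calls, median-of-ratios scaling gave 48.6% and no filter 38.2%. Between the lines, 4 members lay above TMD8 after scaling over 6 libraries, and 4 activated targets lay below it without the OCI-LY10 control library. Both of these alternatives were chosen after seeing the data. In TMD8, 1 member (MNT) passed 1.5 with median-of-ratios scaling and 1 with a pseudocount of 0.1 FPKM. The cause of these changes was not tested. Counts by the 1.5-fold rule in these settings have no share of all genes beside them and say little about the members. The log2 change turned to −0.050 for MXI1 and −0.034 for MNT with median-of-ratios scaling, and to 0.11 for MLX with small RNA genes left out, none of them past the threshold. With each STAT3 shRNA left out in turn it ran from −0.29 to 0.33 for MXI1, −0.045 to 0.093 for MNT and −0.067 to 0.011 for MLX. Over all alternatives, 46 summary counts stayed within 1.5 times and 10 did not. Of values of single genes and lists, 165 kept their sign and side of the threshold or, as counts, stayed within 1.5 times. A further 21 list counts moved beyond that, and 6 log2 changes (MXI1, MNT and MLX) turned sign. Another 3 (STAT3) lost their call and 1 (MXD3) gained it. No paired analysis was possible because OCI-LY10 has only 1 control library, which cannot form 2 pairs. The only OCI-LY10 control library cannot be left out of the comparison that rests on it, and members below 1 FPKM, MXD1 and MXD4, are limited by depth.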
